A study of Mus musculus with 6 samples.

Results

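AP-1 is a family of dimeric transcription factors made of FOS and JUN proteins, and the early growth response (EGR) factors are zinc-finger proteins induced by many of the same stimuli. The 10 genes described here were chosen by name and found under their symbols among the 29955 gene names of the deposited table. They are the FOS genes Fos, Fosb, Fosl1 and Fosl2, the JUN genes Jun, Junb and Jund, and the EGR genes Egr1, Egr2 and Egr3. Of the 10, 6 averaged 1 FPKM or more and were tested (Fosl1, Fosl2, Jun, Junb, Jund and Egr1), and 4 lay below it and have values only (Fos, Fosb, Egr2 and Egr3). FPKM counts sequenced fragments per length of transcript and per depth of library.

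MS-1 is a mouse endothelial cell line, immortalised from the vessels of pancreatic islets. The cells received an LNA inhibitor, a chemically locked antisense strand that blocks a microRNA, directed at miR-31 or at miR-27, or an LNA labelled NC. The labels do not spell NC out, and it is read here as a negative control because its samples carry the treatment label control or TGF-beta with no microRNA named. Each transfection was grown for 72 h without TGF-β2 or with 1 ng/ml of it, which gives 6 conditions with 1 library each and no replicates. Whether each transfection was its own culture is not in the labels, and the p-values therefore cover the spread among these 6 libraries only, which may be technical.

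FOS proteins bind DNA only as partners of JUN proteins, whereas JUN proteins also pair with each other. The mix of partners decides how strongly a dimer activates its targets, with Jun a strong activator, Junb a weaker one that can oppose Jun, and Fosl1 and Fosl2 lacking the main activation domain of Fos. Fos, Fosb, Jun, Junb and the EGR genes are immediate early genes, switched on within minutes to hours of growth factors or stress through MAP kinases and serum response factor. In endothelial cells they respond to growth factors, shear stress and injury, and AP-1 proteins cooperate with Smad proteins at TGF-β target genes.

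The inhibitors act on microRNAs that recognise messages through a short seed, shown here because it is the sequence searched for in the 10 genes. The labels do not name the arm, and the guide arms in RefSeq (GRCm38.p6) are given with the seed, bases 2 to 8, in capitals.
mmu-miR-31-5p: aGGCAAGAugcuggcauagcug
mmu-miR-27a-3p: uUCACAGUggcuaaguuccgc
mmu-miR-27b-3p: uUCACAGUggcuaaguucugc
Both miR-27 forms share 1 seed. A 7-base match to the miR-31 seed was found in the longest annotated 3′ UTR (GENCODE vM21) of 0 of the 10 genes, against 13.3% of the 9550 tested genes with such a UTR. A match to the miR-27 seed was found in 2, Fosb and Fosl2, against 17.9% of the same genes. The Fosl2 match begins at base 2471 of a 3′ UTR of 4653 bases and is in capitals below.
Fosl2, miR-27 seed match: tgaacttgggctggACTGTGAgcagctc
These matches are letters in a reference UTR and were not tested for function.

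In each library 11680 to 11791 genes reached 1 FPKM, and relative depth read from the lowest values differed by at most 1.22-fold. Of 8 endothelial markers, 7 averaged over 1 FPKM, with Pecam1 at 593 to 647 FPKM and Cldn5 at no more than 0.0359. Their sum was 1204 to 1296 FPKM without TGF-β2 and 1147 to 1174 with it. Kdr (60.8 to 68.8 FPKM without TGF-β2, 35.3 to 37.2 with it), Tie1 and Esam were lower with it without overlap. The ranges of the other endothelial markers overlapped. The summed leukocyte markers were at most 0.0621 FPKM and the pancreas markers at most 0.0423. The summed fibroblast and mural markers went from 3.57 to 4.36 FPKM without TGF-β2 to 19.6 to 24.2 with it, mostly Pdgfra, and the summed epithelial markers from 0.274 to 0.529 to 0.815 to 1.46, with Epcam listed at 0. The part of these shifts in the results below was not tested. The TGF-β2 library of the miR-31 transfection stood apart in many genes, in that its response lay at least 1 (log2 of FPKM + 1) beyond both other responses for 58 of 11816 tested (0.491%), against 22 and 23 for the negative control and the miR-27 inhibitor. The response of each of the 10 genes is therefore also given without that transfection.

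Without TGF-β2 the AP-1 message was spread over Jun, Jund, Junb, Fosl2 and Fosl1. With TGF-β2, Junb became the most abundant of the 10 genes, Fosl1 fell to between 1.05 and 1.85 FPKM, and Jun, Jund and Egr1 fell. Fosl2 rose by a small amount. All 6 tested genes passed the test, 2 higher (Junb and Fosl2) and 4 lower (Fosl1, Jund, Jun and Egr1), in a data set where 50.2% of all 11816 genes tested passed, 22.7% higher and 27.5% lower. Passing is therefore common here, and the sizes of the changes say more than the count. In RNA from whole cultures, fewer cells of a type and less RNA per cell cannot be told apart.

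**Figure D1:**
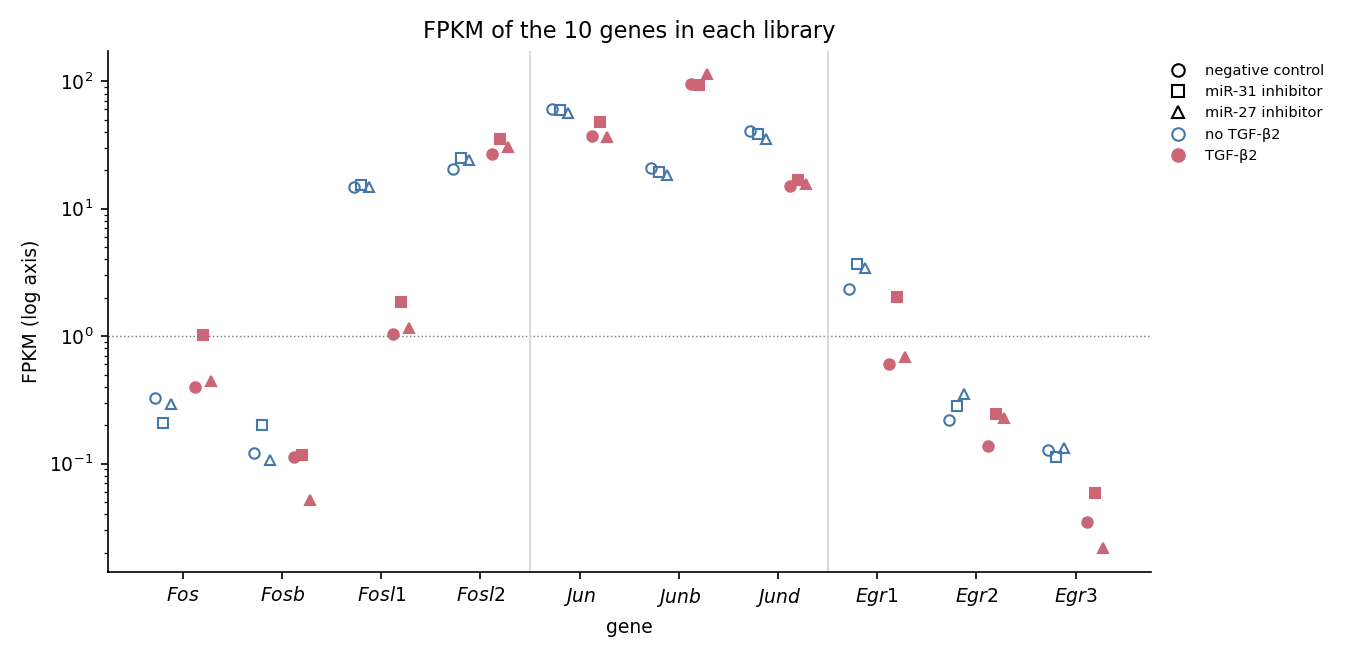
FPKM (log axis) of the 10 genes in the 6 libraries, with open blue symbols without and filled red symbols with TGF-β2, the symbol shape giving the inhibitor and the dotted line 1 FPKM. Junb moves from 18.4 to 21.0 up to 94.2 to 113 FPKM, and Fosl1 from 14.7 to 15.3 down to 1.05 to 1.85.

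Junb encodes a JUN protein that activates more weakly than Jun and is a well-known TGF-β target. Its level without TGF-β2 was 21.0 FPKM for the negative control, 19.3 for the miR-31 inhibitor and 18.4 for the miR-27 one. With TGF-β2 it was 95.4, 94.2 and 113 FPKM in the same order, rises of 4.54-, 4.88- and 6.14-fold. All 3 libraries with TGF-β2 lay far above all 3 without. The fitted rise was 2.30 ± 0.09 (SE, log2 of FPKM + 1, limma adjusted p = 1.082e-04), the 52nd largest of the 11816 genes, and it was 2.34 without the miR-31 inhibitor libraries. The deposited model spans chromosome 8, 87498383 to 87502617 in mm9, and shares that listed place with AK006748, which was at 0.264 to 0.894 FPKM.

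Jun, the founding and strongly activating member of its family, moved the opposite way by a smaller amount. It was at 60.2, 59.0 and 56.5 FPKM without TGF-β2 (negative control, miR-31 and miR-27 inhibitor, the order used from here on) and at 36.9, 47.4 and 36.6 with it. The groups did not overlap, and the TGF-β2 library of the miR-31 transfection was the closest to the untreated ones. The fitted difference was -0.54 ± 0.08 (limma adjusted p = 0.00626), and -0.65 without the miR-31 inhibitor libraries. Jun lies on chromosome 4, 94715727 to 94718913 in mm9.

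Jund encodes a JUN protein that most cells make steadily and that often restrains growth. It was at 40.5, 38.5 and 35.5 FPKM without TGF-β2 and at 15.1, 16.9 and 15.5 with it, falls of 2.69-, 2.28- and 2.29-fold. The groups did not overlap, and within each group the 3 libraries were close. The fitted difference was -1.22 ± 0.06 (limma adjusted p = 2.126e-04), and -1.26 without the miR-31 inhibitor libraries. Jund lies on chromosome 8, 73221638 to 73224515 in mm9.

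The summed JUN message was higher with TGF-β2, and its make-up changed. The summed FPKM was 122, 117 and 110 without TGF-β2 and 147, 159 and 165 with it. Junb made up 17.3%, 16.5% and 16.7% of that sum without TGF-β2 and 64.7%, 59.4% and 68.5% with it. Jun went from 49.5%, 50.5% and 51.2% to 25.0%, 29.9% and 22.2%, and Jund from 33.3%, 33.0% and 32.2% to 10.2%, 10.7% and 9.39%. The ratio of Junb to Jun moved from 0.349, 0.327 and 0.325 to 2.58, 1.99 and 3.09, so the more abundant of the pair changed from Jun to Junb in every transfection. These shares restate the values tested above and have no test of their own.

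**Figure D2:**
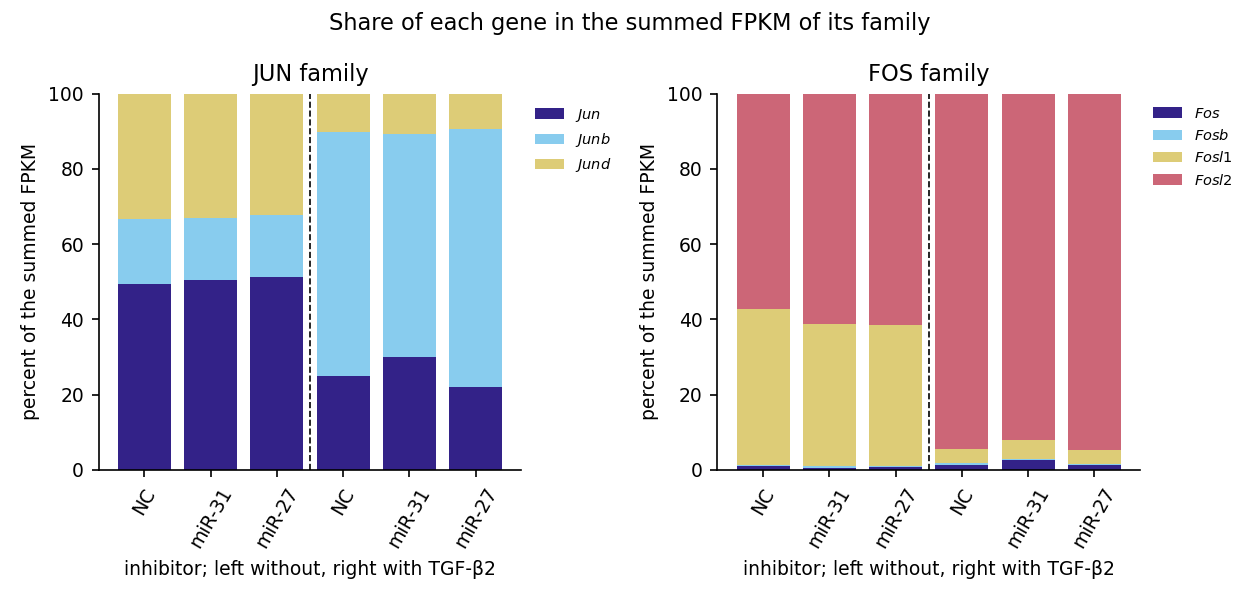
Share of each gene in the summed FPKM of the JUN family (left panel) and the FOS family (right panel), 1 bar per library, with libraries without TGF-β2 left of the dashed line in each panel. Junb takes 59.4% to 68.5% of the JUN sum with TGF-β2, and Fosl2 takes 92.1% to 94.8% of the FOS sum.

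Since the 3 JUN genes moved in different directions, the 250 bases before each RefSeq start (GRCm38.p6, a later build than that of the deposited table) are shown side by side, 5′ to 3′ on the strand of the gene, with motif matches in capitals.
Jun, chr4:95052223-95052472, minus strand: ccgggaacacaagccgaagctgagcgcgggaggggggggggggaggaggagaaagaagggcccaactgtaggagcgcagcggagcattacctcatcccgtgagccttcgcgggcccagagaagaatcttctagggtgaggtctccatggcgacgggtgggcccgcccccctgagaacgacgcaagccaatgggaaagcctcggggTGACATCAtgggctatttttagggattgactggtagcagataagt
Junb, chr8:84978749-84978998, minus strand: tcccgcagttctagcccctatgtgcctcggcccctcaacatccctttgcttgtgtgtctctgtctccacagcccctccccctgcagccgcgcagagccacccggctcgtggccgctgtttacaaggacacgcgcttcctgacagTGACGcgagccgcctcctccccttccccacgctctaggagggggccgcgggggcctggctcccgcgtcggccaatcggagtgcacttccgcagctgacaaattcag
Jund, chr8:70697489-70697738, plus strand: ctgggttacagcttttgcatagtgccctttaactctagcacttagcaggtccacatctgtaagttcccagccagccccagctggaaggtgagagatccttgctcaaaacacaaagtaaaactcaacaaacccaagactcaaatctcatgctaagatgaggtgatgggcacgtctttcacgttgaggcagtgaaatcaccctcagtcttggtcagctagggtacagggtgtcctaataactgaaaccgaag
Both strands were searched for the AP-1 site TGANTCA, the cAMP response element TGACGTCA, the variant TGACATCA, the short form TGACG that lies inside the cAMP response element, the EGR site GCGNGGGCG and the CArG box bound by serum response factor. The Jun window held TGACATCA at bases -45 to -38, where -1 is the base before the start, a motif found in 2.93% of 32851 windows of that length. The Junb window held TGACG at -106 to -102, found in 17.8%. In the Jund window these letters were not found. Of the 10 genes, 7 had a window in the table used (not Fosl1, Egr1 and Egr3), and a match is a description of letters only.

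Among the FOS genes, Fosl1 showed the largest change of the 10 genes. Fosl1 encodes Fra-1, a FOS protein linked to cell migration and invasion. It was at 14.8, 15.3 and 14.7 FPKM without TGF-β2 and at 1.05, 1.85 and 1.15 with it, falls of 14.1-, 8.28- and 12.7-fold. The 3 libraries without TGF-β2 were within 1 FPKM of each other and all far above those with it. The fitted difference was -2.78 ± 0.09 (limma adjusted p = 7.423e-05), the 24th largest fall of the 11816 genes, and -2.90 without the miR-31 inhibitor libraries. Since the treated level is near the added 1 FPKM, the size depends on it: the difference was -3.41 with 0.1 FPKM added and -1.65 with 5, both past the threshold.

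Fosl1 is listed at chromosome 19, 5447698 to 5457549 in mm9, and that place is shared with Ccdc85b. In GENCODE vM21 the 2 genes lie on opposite strands and overlap by 2767 bases. Ccdc85b was at 38.1, 39.3 and 37.0 FPKM without TGF-β2 and at 22.2, 25.2 and 23.9 with it, a fitted difference of -0.66 ± 0.05 (limma adjusted p = 6.294e-04). The libraries were directional, but whether counting used the strand is not given in the sources used here, so some reads of one gene may have been counted for the other. Both genes fell, Fosl1 by more.

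Fosl2 encodes Fra-2, the closest relative of Fra-1. It was at 20.4, 24.9 and 24.1 FPKM without TGF-β2 and at 26.8, 35.0 and 30.3 with it, rises of 1.32-, 1.41- and 1.26-fold. The groups did not overlap, although the untreated miR-31 inhibitor library and the negative control with TGF-β2 were close. The fitted rise was 0.39 ± 0.05 (limma adjusted p = 0.00308), and 0.35 without the miR-31 inhibitor libraries. Fosl2 lies on chromosome 5, 32438845 to 32460212 in mm9, and its window in GRCm38.p6 held the EGR site at -79 to -71. The motif was found in 4.7% of windows, and the Fosb window also held it, at -50 to -42. The windows of Fos and Fosb and some of Egr2 held TGACG, and some of Egr2 held the CArG box. Any tie between these sites and the changes was not tested, and the Fosl2 site is in capitals below.
Fosl2, EGR site: tccggctgcgcGCGGGGGCGgaagggcgcg

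Fos and Fosb, the strongly activating FOS genes, were low in every library. Fos was at 0.327, 0.208 and 0.293 FPKM without TGF-β2 and at 0.399, 1.02 and 0.448 with it. The 3 libraries with TGF-β2 were above the 3 without, most clearly with the miR-31 inhibitor (4.92-fold), and the mean difference was 0.33 ± 0.36 (SD over 3 transfections), or 0.12 without the miR-31 inhibitor libraries. Fosb was at 0.122, 0.203 and 0.107 FPKM without TGF-β2 and at 0.114, 0.116 and 0.0520 with it, with overlapping groups and a mean difference of -0.06 (-0.04 without the miR-31 inhibitor libraries). When the filter on low values was dropped, neither passed (limma adjusted p = 0.301 for Fos and 0.195 for Fosb).

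The FOS sum was 35.6, 40.6 and 39.2 FPKM without TGF-β2 and 28.4, 38 and 31.9 with it, so the sums of the treated and untreated libraries overlapped. Within it, Fosl1 went from 41.5%, 37.7% and 37.4% to 3.69%, 4.86% and 3.61%, and Fosl2 from 57.3%, 61.3% and 61.5% to 94.5%, 92.1% and 94.8%. The ratio of Fosl2 to Fosl1 went from 1.38, 1.62 and 1.64 to 25.6, 19.0 and 26.2. With TGF-β2 the FOS message was therefore almost all Fosl2.

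Egr1 encodes the EGR factor best studied in vessels, where it is induced by injury and shear. It was at 2.35, 3.66 and 3.44 FPKM without TGF-β2 and at 0.603, 2.04 and 0.684 with it, falls of 3.89-, 1.79- and 5.04-fold. The groups did not overlap, but the TGF-β2 library of the miR-31 transfection was close to the untreated negative control. The fitted difference was -1.03 ± 0.15 (limma adjusted p = 0.00515), and -1.23 without the miR-31 inhibitor libraries. At levels this low the added 1 FPKM shortens the fold: with 0.1 FPKM added the difference was -1.60, and with 5 it was -0.42, both past the threshold.

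Egr2, known from nerve myelination and lymphocytes, was at 0.221, 0.282 and 0.350 FPKM without TGF-β2 and at 0.138, 0.246 and 0.227 with it, and the groups overlapped. Egr3, a relative with roles in muscle spindles and immune cells, was at 0.128, 0.113 and 0.132 FPKM and at 0.0347, 0.0585 and 0.0217 with TGF-β2. All 3 Egr3 values with TGF-β2 lay below those without. With no filter on low values Egr3 passed narrowly (-0.11 ± 0.02, limma adjusted p = 0.047) and Egr2 did not (adjusted p = 0.096). Without the miR-31 inhibitor libraries the mean differences were -0.14 for Egr3 and -0.12 for Egr2, with no test. The change in Egr3 is between values far under 1 FPKM, where few fragments carry each value.

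**Figure D3:**
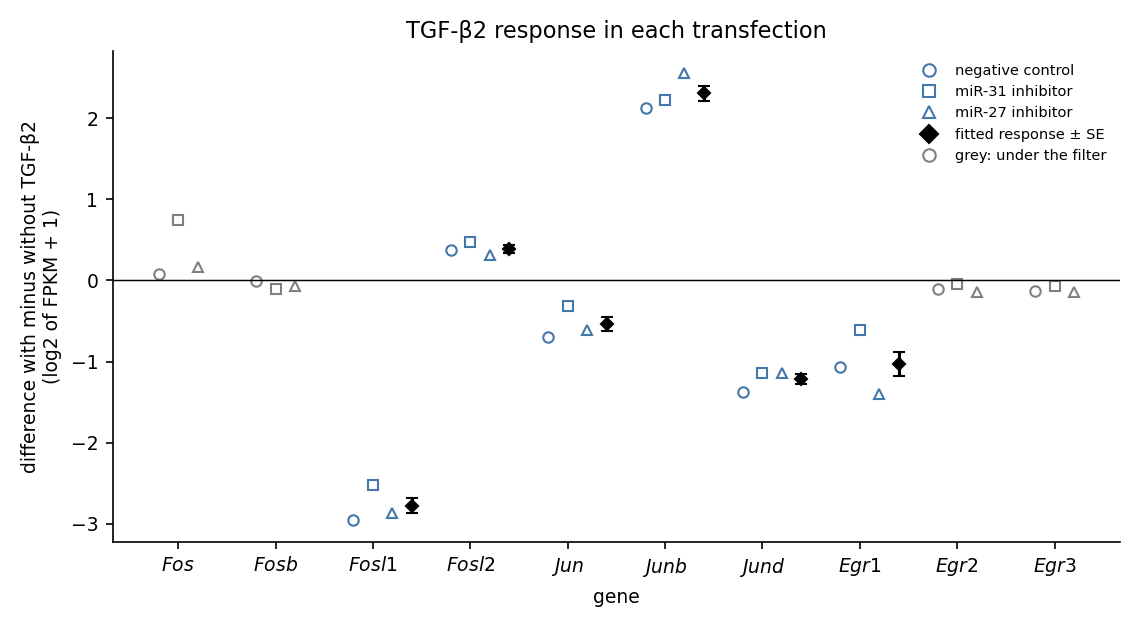
Difference with minus without TGF-β2 (log2 of FPKM + 1) of the 10 genes in the 3 transfections (open symbols) and the fitted response with its SE (black diamonds), with genes under the filter in grey. Junb and Fosl2 lie above 0, and Fosl1, Jun, Jund and Egr1 below 0, in all 3 transfections.

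In all, the 3 libraries with TGF-β2 lay above the 3 without for 3 of the 10 genes (Junb, Fosl2 and Fos), below them for 5 (Fosl1, Jun, Jund, Egr1 and Egr3), and overlapped for Fosb and Egr2. Over the 11816 tested genes 26.8% lay above and 31.6% below, a base that leaves out Fos, Fosb, Egr2 and Egr3, which were under the filter. Ordered by level per length without TGF-β2, Jun was first (56.5 to 60.2 FPKM), then Jund, then Fosl2 and Junb, whose ranges overlapped (20.4 to 24.9 and 18.4 to 21.0), then Fosl1 and Egr1. Fos and Egr2 overlapped below them, as did Fosb and Egr3 at the end. With TGF-β2 the order was Junb (94.2 to 113 FPKM), Jun (36.6 to 47.4), Fosl2 (26.8 to 35.0) and Jund (15.1 to 16.9). Fosl1 (1.05 to 1.85), Egr1 (0.603 to 2.04) and Fos (0.399 to 1.02) followed, with the range of Egr1 overlapping both others.

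No difference between an inhibitor and the negative control passed the test for these genes. In the additive fit, 0 of the 6 tested genes passed for the miR-31 inhibitor against the negative control (limma; 4 of 11816 genes, 0.0339%, passed) and 0 passed for the miR-27 inhibitor (1 gene, 0.00846%). The 4 include Mapk9, listed at 0 in both miR-31 inhibitor libraries, which can be a failed estimate. At an unadjusted limma p under 0.05, Fosl2 and Egr1 stood out for miR-31 (18.1% of all genes did) and Fosl2 for miR-27 (12.4%). Fosl2 was 0.27 higher with the miR-31 inhibitor than with the negative control without TGF-β2 and 0.37 higher with it. The fitted value was 0.32 ± 0.06 (unadjusted p = 0.00314, limma adjusted p = 0.227). With the miR-27 inhibitor Fosl2 was 0.23 and 0.17 higher, a fitted 0.20 ± 0.06 (unadjusted p = 0.0214, limma adjusted p = 0.341). The Fosl2 3′ UTR has a match to the miR-27 seed and 0 to the miR-31 seed, whose inhibitor gave the larger difference. A role of the match was not tested. In each TGF-β2 state the negative control had the lowest Fosl2 value of the 3.

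Egr1 was 0.48 higher with the miR-31 inhibitor without TGF-β2 and 0.92 higher with it, a fitted 0.70 ± 0.18 (unadjusted p = 0.0132, limma adjusted p = 0.23). With the miR-27 inhibitor it was 0.41 and 0.07 higher, a fitted 0.24 ± 0.18 (limma adjusted p = 0.601). For Fosl1 the miR-31 inhibitor gave 0.05 and 0.48, for Jun -0.03 and 0.35, for Jund -0.07 and 0.16, and for Junb -0.12 and -0.02. Fosl1, Fosl2, Jun, Jund and Egr1 differed more with TGF-β2 than without it under the miR-31 inhibitor, and Junb less. Without the untreated miR-31 inhibitor library, that inhibitor entered the additive fit through its TGF-β2 library alone. The fitted differences were then 0.46 for Fosl1, 0.39 for Fosl2, 0.33 for Jun and 1.01 for Egr1. The control level in that fit also drew on the untreated control and the miR-27 inhibitor libraries, so these are not single-library differences. On the miR-31 side they rest on the 1 library that stood apart.

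**Figure D4:**
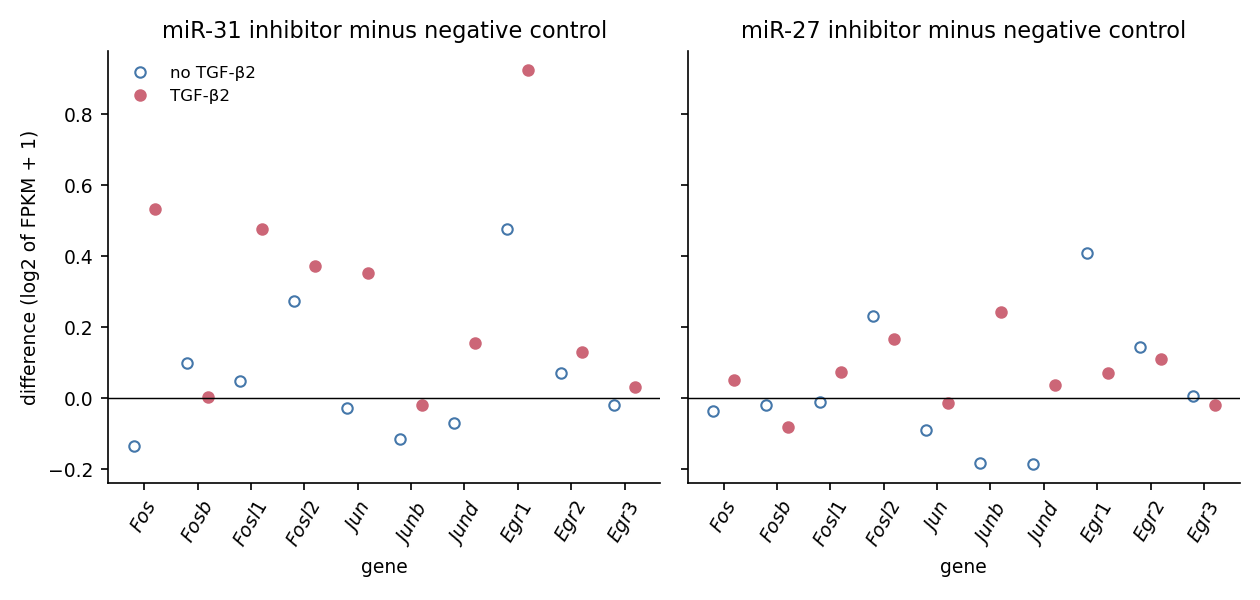
Difference of the miR-31 inhibitor (left) and miR-27 inhibitor (right) from the negative control for each of the 10 genes (log2 of FPKM + 1), without TGF-β2 (open blue) and with it (filled red), each point from a pair of libraries. With the miR-31 inhibitor, Egr1 has the largest difference in either state, 0.48 and 0.92.

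Of the 3 libraries with TGF-β2, the one with the miR-31 inhibitor had the highest value for 9 of the 10 genes, all but Junb, and for 5 of the 6 tested. Over all genes tested it was the highest in 36.5%. Without TGF-β2 the library with the miR-31 inhibitor was the highest for 4 of the 10 and over all genes in 33.4%. These counts were made after the values were seen and rest on 1 library each.

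Whether the response to TGF-β2 differed with an inhibitor was tested as an interaction, which assumes that the other 2 transfections share a response. For the miR-31 inhibitor 0 of the 6 genes passed (limma; 64 genes, 0.542%, did), although Fosl1 (0.39, unadjusted p = 0.00616, limma adjusted p = 0.18), Jun (0.34, 0.00946 and 0.202) and Egr1 (0.62, 0.0114 and 0.207) were under 0.05 unadjusted, as were 15.9% of all genes. In these 3 genes the fall was the smallest with the miR-31 inhibitor. For the miR-27 inhibitor 0 of the 6 passed (limma; 4 genes, 0.0339%, did). Junb, with the largest rise in that transfection, gave 0.38 (unadjusted p = 0.027, limma adjusted p = 0.999), and 1.64% of all genes were under 0.05 unadjusted.

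Genes around AP-1 and EGR were read from gene lists, each beside the 50.2% of all genes that passed and the median response of -0.02 over all genes. Among other AP-1 partners and related factors, 1 of 10 tested genes rose (Creb1, 0.14) and 2 fell (Atf7, -0.38, and Crem, -0.35), with a list median of -0.05. Jdp2, a repressor that pairs with JUN proteins, was at 62.9, 72.5 and 70.2 FPKM without TGF-β2 and at 31.9, 74.0 and 45.0 with it. It did not pass over all libraries (-0.52, limma adjusted p = 0.0754) and did without the miR-31 inhibitor libraries (-0.79, adjusted p = 0.0022), as did the small Maf factor Mafk (-0.37, adjusted p = 0.0538, against -0.54, adjusted p = 9.465e-04). Then 6 genes of this list passed. The EGR corepressors Nab2 (-0.61) and Nab1 (-0.51) both fell, and Egr4 was listed at 0 in every library.

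In a list of serum response factor, ternary complex factors and other cofactors, 3 of 7 rose (Elk4, 0.61, Fhl2, 0.28, and Mkl1, 0.16) and 0 fell, with a median of 0.14. Without the negative-control libraries only Elk4 passed. Of 25 tested MAP kinases and their activators, which carry signals to AP-1, 3 rose (Mapk8, 0.48, Map2k1, 0.26, and Mapk10, 0.25) and 10 fell, with a median of -0.10. The largest falls were in the p38 arm, in Map2k6 (-1.10), Mapk11 (-0.65) and Mapk12 (-0.56). Mapk10 is listed at the same place as Mapk8 and the name jnk1, so its rise cannot be told apart from that of Mapk8. Mapk9 shares its place with the name Jnk2 and was listed at 0 in both miR-31 inhibitor libraries, which can be a failed estimate. Other list genes also share a place with a second name, Dusp16 with MKP-7 among them, and reads may have been split between the names. Without the negative-control libraries 7 of this list passed.

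The MAP kinase phosphatases, which switch these kinases off and are induced by them, gave 5 falls and 2 rises (Dusp9, 0.47, and Dusp16, 0.25) in 10 genes, with a median of -0.41. Dusp5, the nuclear ERK phosphatase, fell by 2.24, from 42.3, 47.4 and 46.8 FPKM to 7.53, 10.5 and 8.74. Dusp7 (-1.92), Dusp1 (-1.20), Dusp10 (-0.57) and Dusp4 (-0.55) also fell. Of 19 other immediate early genes tested, 10 fell and 4 rose, with a median of -0.24. Those that rose were Rhob (1.52), Ier3 (0.90), Csrnp1 (0.42) and Klf10 (0.18), and Plk3 fell by 1.31. Without the miR-27 inhibitor libraries 8 of this list passed.

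Genes reported as AP-1 targets split both ways. Of 17 tested, 5 rose and 8 fell, with a median of -0.26. Edn1, the endothelin precursor, rose by 3.93, and those that rose also included Il6 (1.26), Mt1 (0.91) and Itga5 (0.47). Hmga1, a chromatin protein gene reported downstream of AP-1, fell (-3.23), as did Ccnd1, the cyclin D1 gene (-2.18), and Plaur, the urokinase receptor gene (-1.88). Genes reported as EGR1 targets gave 7 rises and 6 falls in 15, with a median of 0.02. The fibronectin gene Fn1 (2.86) and the stress gene Gadd45b (1.18) were among those that rose. The target lists share genes, among them Plau, Hbegf and Cd44, and these responses carry no test of AP-1 or EGR1 action.

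Among 9 regulators of AP-1 protein, 2 rose, the ubiquitin ligase genes Smurf2 (0.73) and Rfwd2 (0.26), and 4 fell, among them Fbxw7 (-0.25), Cops5 (-0.24) and Smurf1 (-0.23), with a median of -0.15. Without the miR-27 inhibitor libraries 2 of this list passed. Itch, a ligase for Jun and Junb, had a fitted 1.73 that did not pass (limma adjusted p = 0.217), since it was listed at 0 in the untreated negative control and at 25.7 to 29.6 FPKM elsewhere.

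**Figure D5:**
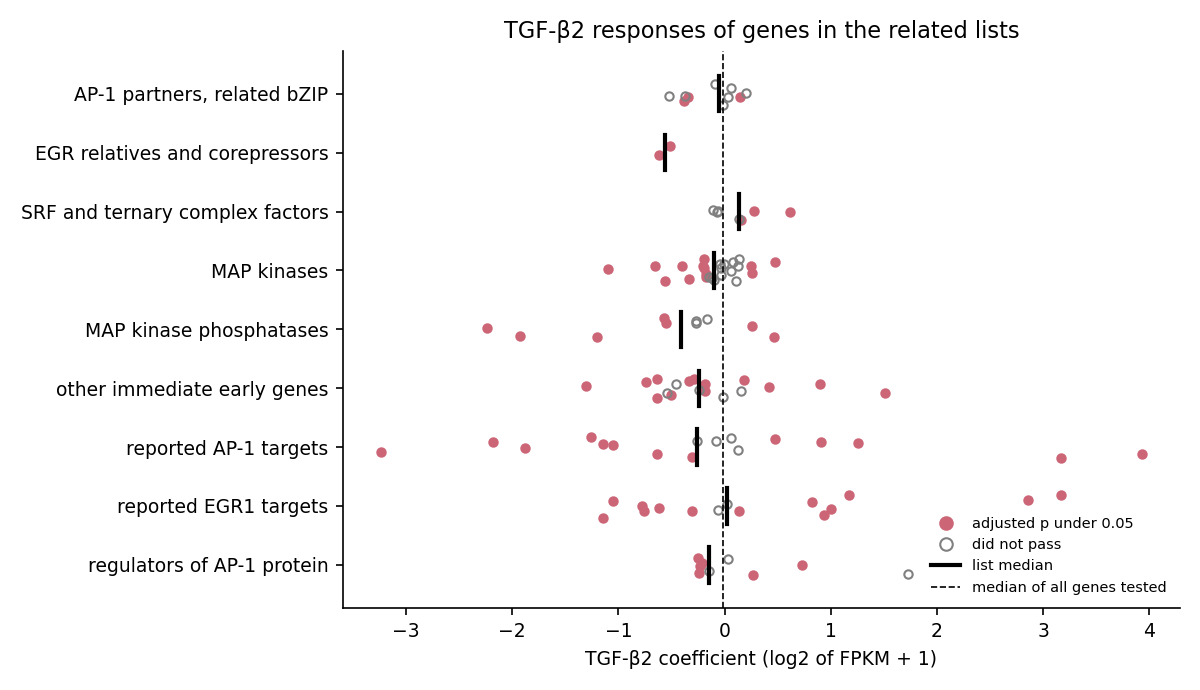
Fitted TGF-β2 response (log2 of FPKM + 1) of each tested gene in the 9 related lists, red where the adjusted p was under 0.05 and open grey otherwise, with a bar at the list median and a dashed line at the median of all genes tested. The phosphatases have a median of -0.41, and reported AP-1 targets run from -3.23 to 3.93.

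For the gene with the widest spread in each family, the 3 tested genes with the most similar profile over the 6 libraries were found among 10142 genes, by the Euclidean distance between centred log2 values. For Junb they were Pdlim1 (distance 0.176), Tmem86a (0.192) and Srpx2 (0.233). Pdlim1, which encodes an actin-binding adaptor, went from 16.3, 15.0 and 14.2 FPKM to 79.8, 73.4 and 79.7. For Fosl1 they were the prostaglandin D synthase gene Ptgds (0.188), the junction gene Ppl (0.313) and the muscarinic receptor gene Chrm3 (0.340). With TGF-β2, Ptgds was at 0.765, 1.39 and 0.893 FPKM, highest with the miR-31 inhibitor like Fosl1. Ppl was at 1.37, 1.67 and 1.69, highest with the miR-27 inhibitor. For Egr1 they were Zfand2a (0.334), Rnd1 (0.342) and the asparagine synthetase gene Asns (0.364). The nearest of these was farther away than the nearest for Junb or Fosl1, but closer than Chrm3 was to Fosl1. Asns went from 105, 137 and 135 FPKM to 39.0, 78.1 and 55.0, with the highest TGF-β2 value under the miR-31 inhibitor, as for Egr1. The genes were picked for likeness over these same 6 libraries, so shared features follow from the choice and are descriptions only.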

How the data were processed

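RNA from 6 libraries of MS-1 cells was depleted of ribosomal RNA and made into directional libraries, per the labels' protocols. The authors deposited 1 table of FPKM for 29955 gene names. TopHat2 2.0.9, Cufflinks 2.1.1 and mm9 are named, per the submitters' processing notes, and counting options are not given in the sources used here. Listed starts count from 0 and are printed from 1.

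Values were used as log2(FPKM + 1). The 11816 genes averaging 1 FPKM or more were fitted with limma 3.58.1 in R 4.3.3 as inhibitor plus TGF-β, 2-sided, with Benjamini-Hochberg adjustment across these genes and calls at 0.05. Residual degrees of freedom were 2, or 1 with an interaction. An exact sign-flip test over 3 pairs cannot go below 0.25. The fit was run on simulated data with independent noise and planted changes, which cannot check how its p-values behave in these libraries. The genes and lists were chosen with earlier results of these data known. Named were all 10 genes, the 3 genes of each list with the largest coefficient (with others where a count was 5 or fewer), and the 3 nearest profiles per family, except that some listed genes are counted but not reported here, leaving out unnamed models, short RNAs and names of several genes. AK006748 and Ccdc85b are named for their shared places, Mapk9 and Egr4 for being listed at 0. Pseudocounts, filters, scalings, limma options and left-out libraries were varied. Fragment totals are unknown, so no counting intervals are given.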

Additional observations from a re-analysis of the deposited data

Results flagged for a closer look

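Atf3, a stress-induced partner of JUN proteins, responded differently to TGF-β2 with the miR-31 inhibitor than in the other 2 transfections (interaction 1.86 ± 0.11, limma adjusted p = 0.0119), a call that ended with no filter on low values (adjusted p = 0.358) and with a pseudocount of 0.1 (0.0661) and held in the other 6 settings (5.901e-06 to 0.0231). Its level was 31.6, 32.0 and 31.8 FPKM without TGF-β2 and 25.1, 88.8 and 22.0 with it (negative control, miR-31 and miR-27 inhibitor), so 1 library carries the difference. Ier2, an immediate early gene, gave 0.88 ± 0.09 (limma adjusted p = 0.0455), at 17.7, 15.6 and 15.5 FPKM without TGF-β2 and 9.69, 17.1 and 9.24 with it. Its call ended with no filter (limma adjusted p = 0.358), a pseudocount of 0.1 (0.133) and quantile normalization (0.0778), and held in the other 5 settings (4.042e-04 to 0.0489). With no filter, 0 genes passed this limma interaction, and 2887 had an unadjusted p under 0.05. Both genes lie outside the rule for named genes and were chosen after their values were seen.

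For Fos and Egr3 the difference between an inhibitor and the negative control had opposite signs without and with TGF-β2, and the change between the states was not tested. It came to 0.67 for Fos with the miR-31 inhibitor, 0.0869 for Fos with the miR-27 inhibitor, 0.0522 for Egr3 with the miR-31 inhibitor and -0.0241 for Egr3 with the miR-27 inhibitor. All rest on values near or below 1 FPKM.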

How the results depend on the processing

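The TGF-β2 responses of Fosl1, Fosl2, Jun, Junb, Jund and Egr1 kept their direction and passed under every alternative run that gave them a value, 18 settings for each gene and 17 for Egr1, with the ranges -3.41 to -1.65, 0.34 to 0.43, -0.65 to -0.46, 2.1 to 2.39, -1.27 to -1.05 and -1.60 to -0.42. With no filter on low values Jun (limma adjusted p = 0.0445) and Egr1 (0.0459) passed narrowly. Egr1 had no value with a mean of at least 5 FPKM. Fosb changed sign, to 0.01, after quantile normalization.

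Over all genes, 5926 passed for TGF-β2 (2677 higher, 3249 lower). Leaving out 1 library gave 3566 to 6087 (1640 to 2815 and 1926 to 3272). Leaving out both negative-control libraries gave 3566 (1640 and 1926), and both miR-27 libraries 3917 (2090 lower). Leaving out 1 library removes its pair from this contrast, so the 9 settings that leave out libraries are 3 distinct fits for TGF-β2. Calls for the miR-31 inhibitor were 4 and became 0 with no filter, 13 with trend and robust options and 3 to 1137 with 1 library left out, and those for miR-27 went from 1 to 0 with no filter and 1 to 12 with 1 library left out. Interaction calls for miR-31 went from 64 to 23 with a pseudocount of 0.1, 0 with no filter, 482 with trend and robust options, 128 with equal medians and 42 after quantile normalization. Those for miR-27 went from 4 to 7 with a pseudocount of 5, 0 with no filter, 8 with a mean of at least 5 FPKM and 7 with trend and robust options. The causes were not tested.

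Leaving out the untreated miR-31 inhibitor library left that inhibitor with 1 library. Its fitted differences for Fosl1, Fosl2, Jun and Egr1 in that fit are given above as sizes only. Among the 6 tested genes, 1 interaction passed with trend and robust options (Jun with miR-31, limma adjusted p = 0.0252), a setting in which 482 of all 11816 genes tested passed. With 1 library left out, the miR-31 difference ran from -0.00973 to 0.335 for Jun, -0.197 to 0.0641 for Junb and -0.0694 to 0.155 for Jund. The miR-27 difference ran from -0.165 to 0.0643 for Jun, -0.158 to 0.218 for Junb, -0.185 to 0.0394 for Jund, -0.0962 to 0.159 for Fosl1 and -0.0408 to 0.520 for Egr1, so their signs are unsettled. The fit already pairs the libraries by transfection, and the labels carry no replicate numbers. Leaving the transfection term out changed no call of the 6 genes. With 1 library per condition and no fragment totals, changes in Fos, Fosb, Egr2 and Egr3 cannot be judged well.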
